A study of Rattus norvegicus with 30 samples.

Results

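The MHC class II antigen presentation genes were described in rat heart. The 8 members were Cd74, RT1-Ba, RT1-Bb, RT1-Da, RT1-Db1, RT1-DMa, RT1-DMb and Ciita, taken by symbol with every row of a name. They had 12 rows in the table of each age, which held 27408 rows at 8, 27383 at 21 and 26553 at 78 weeks, and these rows came from 17 of the 41012 probes of the array. Whole hearts came from untreated F344 rats, an inbred strain, with 5 females and 5 males at each of 8 (young), 21 (adult) and 78 weeks (old), so that 30 rats gave 30 arrays. The RNA of each heart was labelled with Cy3 and hybridized to an Agilent rat array.

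Class II molecules are heterodimers of an alpha and a beta chain that show peptides from endocytosed proteins to CD4 T cells. In the rat, the RT1-B molecule is built from RT1-Ba (alpha) and RT1-Bb (beta) and the RT1-D molecule from RT1-Da (alpha) and RT1-Db1 (beta). The invariant chain Cd74 occupies the groove until the molecule reaches the endosome, and RT1-DM (RT1-DMa and RT1-DMb) exchanges its remnant for peptide. Ciita is the transactivator of these genes, and interferon gamma induces it. In heart the known carriers of class II are macrophages, dendritic cells and activated endothelium.

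The promoters of class II genes are known for an X box, bound by the RFX complex, followed at a fixed distance by a Y box, bound by NF-Y. The RefSeq promoter table (build GRCr8) had an entry for 6 of the 8 members and none for RT1-DMb and Ciita. Both strands of the 250 bases upstream of each start were searched for the letters GNNACNGA (X, where N is any base) and TGATTGG (Y), which were chosen after these promoters had been read and do not overlap each other in the promoters printed. The X letters were present in 38.3% and the Y letters in 6.42% of 33469 rat promoters of that length. X followed by Y on the same strand, with 15 to 25 bases between, was found in 24 promoters (0.0717%), among them those of RT1-Da, RT1-Db1, RT1-Bb and RT1-DMa. The stretches below show this shared element, with the X letters first and the Y letters second in capitals. The last line is RT1-Ba, where the Y letters and GCAAC, the letters that open X in RT1-Da and RT1-Db1 and that 29.5% of promoters held, are in capitals.
RT1-Da (chr20:4515313-4515380, plus strand): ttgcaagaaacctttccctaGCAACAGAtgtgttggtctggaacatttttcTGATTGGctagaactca
RT1-Db1 (chr20:4560228-4560294, minus strand): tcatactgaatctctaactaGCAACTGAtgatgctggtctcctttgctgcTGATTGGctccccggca
RT1-Bb (chr20:4604165-4604231, minus strand): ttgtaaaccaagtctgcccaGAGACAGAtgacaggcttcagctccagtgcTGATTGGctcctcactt
RT1-DMa (chr20:4712385-4712452, minus strand): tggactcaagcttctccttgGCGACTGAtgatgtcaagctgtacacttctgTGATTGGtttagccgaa
RT1-Ba (chr20:4576961-4577028, plus strand): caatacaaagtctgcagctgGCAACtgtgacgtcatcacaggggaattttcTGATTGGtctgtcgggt
The X and Y letters were 22 bases apart in RT1-Db1 and RT1-Bb and 23 bases apart in RT1-Da and RT1-DMa. The RT1-Ba promoter held the Y letters and not the X letters, and the Cd74 promoter the X letters and not the Y letters. The letters describe the reference sequence, and factor binding was not measured here.

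The gene names covered probes of unequal use. Each gene is described by its probe of highest mean signal, which was well above background on all 30 arrays for 7 members and on 9 of 30 for Ciita. RT1-Ba had a pair of probes of 60 bases each, one detected in every heart and one in none. Their sequences are given here with the bases that differ in capitals.
RT1-Ba probe above background on 30 arrays: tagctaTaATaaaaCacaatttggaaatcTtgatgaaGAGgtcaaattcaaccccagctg
RT1-Ba probe above background on 0 arrays: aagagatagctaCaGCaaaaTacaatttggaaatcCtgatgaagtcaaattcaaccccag
The 2 probes shared 54 aligned bases with 5 mismatches, and the first held 3 bases that the second lacked. Whether these bases account for the difference in signal was not tested. The names RT1-Ba and RT1-Db1 each held probes that were above background in every heart and probes that were so in none. Of the 6 probes named RT1-Db1, 3 were above background on all 30 arrays, and the others on 1, 0 and 0. The second Cd74 probe and the lower of those 3 RT1-Db1 probes are placed by the array's annotation (build rn3) on the strand opposite to that of the gene's main probe. Class II genes are close paralogs, and cross-hybridization between them was not tested. The main probes lay on chromosome 20 in rn3, at 4641331 to 4641390 for RT1-Da, 4672904 to 4672963 for RT1-Db1, 4730760 to 4730810 for RT1-Bb, 4830350 to 4830586 for RT1-DMb and 4843931 to 4844293 for RT1-DMa. The Cd74 probe lay on chromosome 18 (56837700 to 56837759) and the Ciita probe on chromosome 10 (5087172 to 5087231).

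Signal and labels bear on what follows. The 75th percentile of the signal, by which each array was scaled, ranged from 36.9 to 157, with the lowest in male replicates 2, 4 and 5 of 21 weeks. By the Y-linked genes Ddx3y and Eif2s3y, the 78-week library labelled female replicate 2 lay at the level of males and the library labelled male replicate 3 at that of females. The sex differences of the members and of the marker lists at 78 weeks are therefore also given without both. Females occupied positions 2 and 4 of a slide and males 1 and 3, so that sex and position cannot be told apart. The ages were handled in different batches, and the study made no comparison between ages for that reason. Age and batch cannot be told apart in any age difference below. Fewer class II positive cells and less RNA per cell cannot be told apart in whole hearts.

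Levels are given on the log2 scale relative to the 75th percentile of signal on each array, and levels of different genes are not comparable. Cd74 lay near 6.25 in young hearts of both sexes, rose in adult hearts and was lower again in old ones. In 8-week females it was 6.28, 6.36, 6.18, 6.08 and 6.38, and in 8-week males 6.18, 6.15, 6.27, 6.39 and 6.21. In 21-week females it was 6.56, 6.83, 6.51, 6.62 and 6.66, and in 21-week males 6.67, 7.25, 6.91, 6.72 and 7.51. All 10 adult hearts lay above all 10 young hearts. In 78-week females it was 6.16, 5.95, 6.12, 6.12 and 6.16, and in 78-week males 6.25, 6.09, 6.14, 6.72 and 6.02. One old male, replicate 4, reached the range of adult hearts.

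RT1-Da, the alpha chain of RT1-D, moved in the same way but with one heart far apart. The 8-week values were 4.02, 4.44, 4.16, 3.87 and 4.31 in females and 4.15, 4.05, 4.21, 4.38 and 4.01 in males. At 21 weeks they were 4.64, 4.88, 4.56, 4.66 and 4.67 in females and 4.70, 5.26, 4.86, 4.78 and 5.37 in males. All adult hearts again lay above all young ones. At 78 weeks they were 4.24, 4.05, 3.95, 2.29 and 4.11 in females and 4.63, 4.39, 4.25, 4.89 and 4.10 in males. Female replicate 4 was the lowest of all 30 hearts.

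RT1-Ba, the alpha chain of RT1-B, had the largest difference in means between the sexes among the 4 chains in adult and in old hearts. At 8 weeks it was -0.50, -0.28, -0.87, -0.70 and -0.23 in females and -0.45, -0.62, -0.37, -0.19 and -1.12 in males. At 21 weeks it was 0.11, 0.48, -0.14, 0.04 and -0.33 in females and 0.30, 0.92, 0.61, 0.37 and 0.90 in males. Of the adult females, 1 lay within the male range and 4 below it. At 78 weeks it was -1.14, -0.88, -0.79, -2.75 and -0.62 in females and 0.11, -0.87, -0.17, 0.49 and -0.37 in males. Old males reached both below all adult hearts and into the adult male range, and the sexes overlapped.

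The beta chains and RT1-DM are given by group. RT1-Db1 had means of 3.18 ± 0.19 and 3.12 ± 0.22 at 8, 3.76 ± 0.18 and 4.26 ± 0.32 at 21, and 2.63 ± 0.59 and 3.33 ± 0.48 at 78 weeks (females and males, SD, n = 5). RT1-Bb had means of 3.76 ± 0.20 and 3.77 ± 0.23, 3.93 ± 0.16 and 4.33 ± 0.23, and 3.01 ± 0.82 and 3.69 ± 0.37 in the same order. Both were highest in adult males. RT1-DMa had means of 1.10 ± 0.23 and 1.08 ± 0.27, 1.49 ± 0.23 and 1.95 ± 0.33, and 0.80 ± 0.39 and 1.39 ± 0.35. RT1-DMb had means of -1.58 ± 0.15 and -1.44 ± 0.29, -1.19 ± 0.54 and -0.90 ± 0.41, and -1.34 ± 0.51 and -1.09 ± 0.07. RT1-DMa was highest in adult males, and the means of RT1-DMb at 78 weeks lay above those at 8 weeks in both sexes. Ciita lay between -4.84 and -2.75, and the arrays on which it was well above background numbered 3 at 8, 4 at 21 and 2 at 78 weeks. All 4 at 21 weeks were female, and male replicates 2, 4 and 5 of that age had the lowest 75th percentiles of all arrays (36.9, 59.9 and 66.0).

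**Figure D1:**
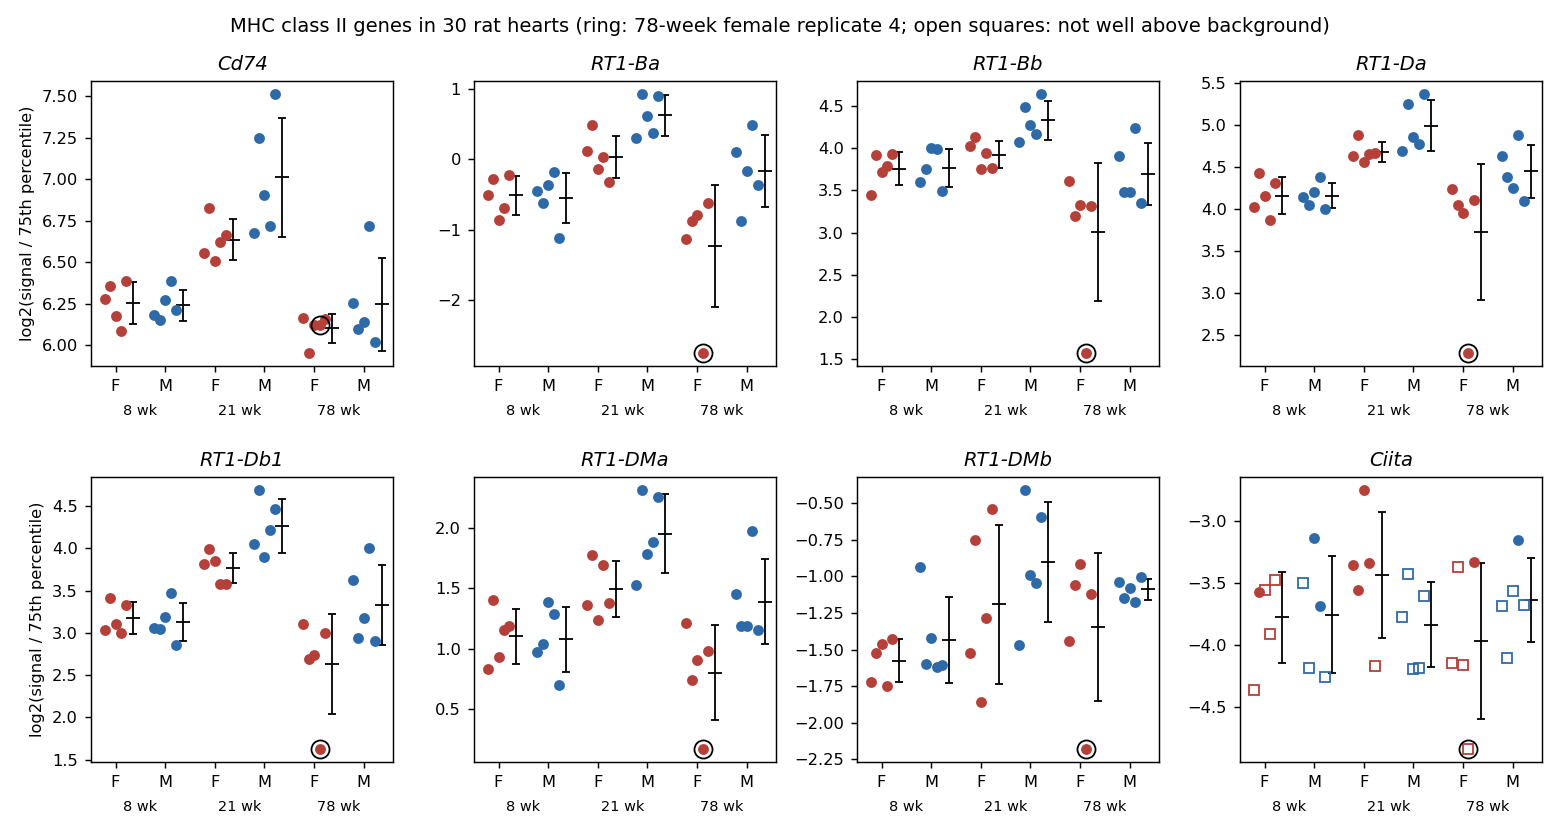
Level of each gene in each heart, on the log2 scale relative to the array's 75th percentile, for females (F, red) and males (M, blue) at 8, 21 and 78 weeks. Points are hearts, the bar beside each group is its mean ± SD (n = 5), open squares are not well above background, and the ring marks 78-week female replicate 4, which is the lowest old heart for every gene except Cd74.

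The first comparison asked how the class II genes differed between ages. In limma, fitted across all probes of all 30 hearts and adjusted by Benjamini-Hochberg, 6 of the 8 members were higher at 21 than at 8 weeks and none was lower. Over all probes 57.3% were called in that comparison and 42.1% were called higher, and the median of all probes was itself shifted up by 0.29 log2. Cd74 rose by 0.57 (SE 0.09, adjusted p = 2.0e-05), RT1-Db1 by 0.86 (SE 0.15) and RT1-Ba by 0.85 (SE 0.19), which are folds of 1.49, 1.81 and 1.81. RT1-Da rose by 0.67 (SE 0.16), RT1-DMa by 0.62 (SE 0.13) and RT1-DMb by 0.45 (SE 0.15). RT1-Bb differed by 0.35 (SE 0.16, adjusted p = 0.0665) and Ciita by 0.14 (SE 0.18, adjusted p = 0.537). Under quantile normalization, which brought the median of all probes to 0.05, the number of members called was again 6 (12545 of all probes called, 6564 higher). Cd74 was then at 0.24, RT1-Da at 0.47 and RT1-Db1 at 0.71. Second probes of RT1-Da (0.75), RT1-Bb (0.76, adjusted p = 0.000222) and RT1-Db1 (1.02) were also called, so that RT1-Bb passed by 1 of its 2 probes. The opposite-strand probe of Cd74 rose by 0.40 (adjusted p = 0.00628) and that of RT1-Db1 by 0.48 (adjusted p = 0.0172). The 3 probes that were above background on 0 arrays were called as well, 2 of RT1-Db1 at 0.50 and 0.51 and 1 of RT1-Ba at 0.42 (adjusted p = 0.0130). They were not called between 78 and 21 weeks (-0.10, -0.23 and -0.18). The adult hearts lay wholly above the young ones for Cd74, RT1-Da and RT1-Db1, as did 3.44% of all probes.

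From 21 to 78 weeks 6 members fell, among a background of 33% of probes called and 19.4% called lower. Cd74 fell by 0.65 (SE 0.09, adjusted p = 3.46e-06), RT1-Db1 by 1.04 (SE 0.15) and RT1-Ba by 1.03 (SE 0.19), the last 2 with folds of 2.05 and 2.04. RT1-Bb fell by 0.78, RT1-Da by 0.75 and RT1-DMa by 0.63, while RT1-DMb differed by -0.16 (adjusted p = 0.409) and Ciita by -0.17 (adjusted p = 0.465). Second probes fell by 1.19 (RT1-Da), 0.73 (RT1-Bb) and 1.22 (RT1-Db1), while the opposite-strand probes of Cd74 (-0.08) and RT1-Db1 (-0.21) were not called. The median of all probes was -0.19. Without 78-week female replicate 4 the number called was still 6 (13640 of all probes called, 5894 higher), and RT1-Da then fell by 0.57 and RT1-Bb by 0.60. Without the 3 weakest arrays, all 21-week males, 5 members were higher at 21 than at 8 weeks, where 10393 probes were called (5858 higher). Then 6 members were lower at 78 than at 21 weeks, where 10178 probes were called (4660 higher). Between 78 and 8 weeks 0 of 8 members were called, against 10.9% of all probes, with differences from -0.43 (RT1-Bb, adjusted p = 0.0973) to 0.29 (RT1-DMb, adjusted p = 0.199). Among the main probes RT1-Bb alone had an unadjusted p under 0.05. Its second probe differed by 0.03 (adjusted p = 0.918), and second probes of RT1-Da (-0.44, adjusted p = 0.0645) and Cd74 (0.31, adjusted p = 0.0936) were under 0.05 unadjusted. Within females 0 members were called (2.49% of probes), with differences from -0.77 (RT1-Bb) to 0.23 (RT1-DMb), and within males 0 (3.93% of probes), with differences from -0.09 (RT1-Bb) to 0.38 (RT1-Ba).

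**Figure D2:**
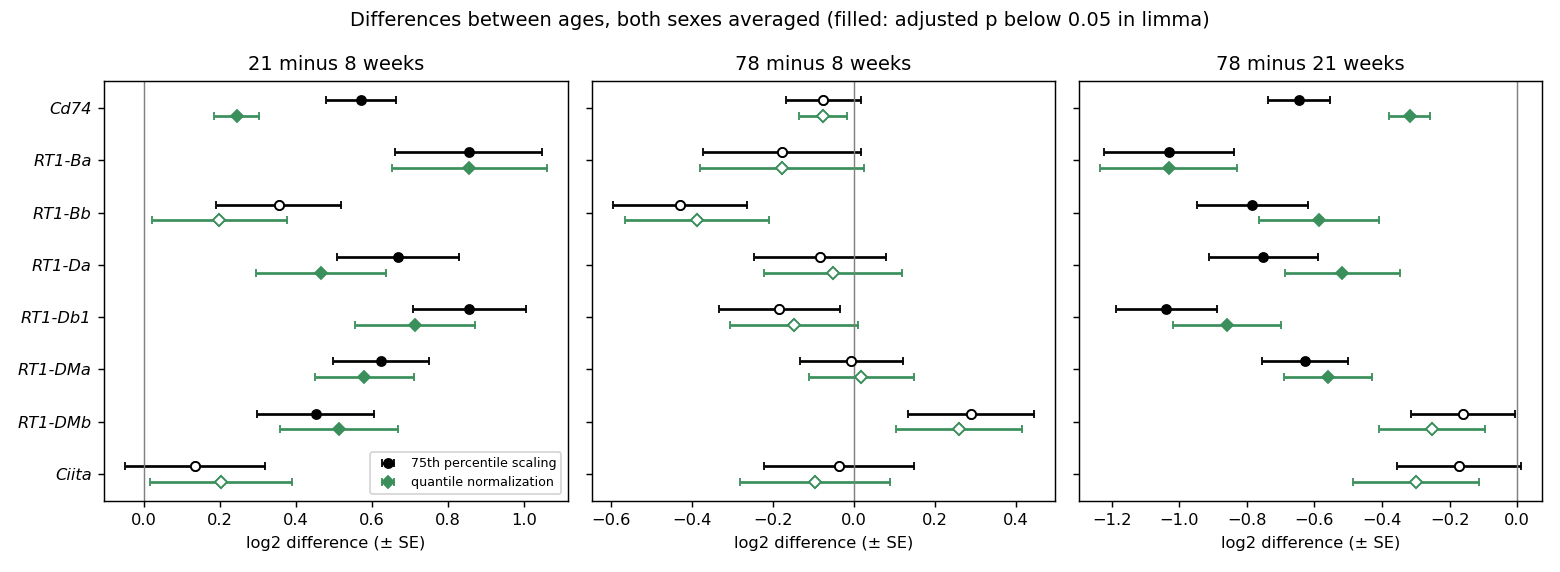
Difference between ages for each gene, as log2 with SE from limma over 30 hearts with both sexes averaged, under 75th percentile scaling (circles) and quantile normalization (diamonds), with filled symbols for an adjusted p below 0.05. Cd74 moved from 0.57 to 0.24 between 21 and 8 weeks under quantile normalization and kept its call, and no gene was called between 78 and 8 weeks.

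The slides were scanned on 2 days, the 8-week slides on the first and the 21-week slides on the second, with 78-week replicates 1 to 3 on the first and 4 and 5 on the second. With scan day as a fixed block 2 members were called between 21 and 8 weeks (9.33% of probes), RT1-Da (1.08, adjusted p = 0.0221) and RT1-Db1 (1.02, adjusted p = 0.0255), and the difference of Cd74 was 0.44 (adjusted p = 0.0855). No day held both 8-week and 21-week hearts, so this contrast rests on the 78-week hearts of both days. Between 78 and 21 weeks the count was 6 under this block (19.7% of probes). Within the second day alone, where 4 old and 10 adult hearts are left, RT1-Bb (-1.01) and RT1-Db1 (-1.13) were called (5.29% of probes) and Cd74 differed by -0.57 (adjusted p = 0.0855). Female replicate 4, with RT1-Da at 2.29 and RT1-Bb at 1.57, was among those 4 old hearts. The fits by scan day were not repeated without it. Within the first day RT1-DMb was higher at 78 than at 8 weeks by 0.39 (adjusted p = 0.0291, 22.1% of probes called), and Cd74 differed by -0.13 (adjusted p = 0.162). One slide held 1 female and 1 male heart of 8 and of 78 weeks. There the old male exceeded the young male by 1.23 for RT1-Ba, 0.77 for RT1-Db1 and 0.63 for RT1-Da, and the old female differed from the young female by -0.91, -0.23 and -0.07.

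Within each sex the same fit gave 0 members called in females between 21 and 8 weeks (7.52% of probes called, 3.17% higher) and 5 in males (53.3%, 39.5% higher), namely Cd74, RT1-Ba, RT1-Da, RT1-Db1 and RT1-DMa. The male differences were 0.77, 1.17, 0.82, 1.13 and 0.87, and the female ones 0.38, 0.54, 0.51, 0.58 and 0.38 in the same order. All 5 adult males lay above all 5 young males for these 5 genes and for RT1-Bb (12.6% of probes), and all 5 adult females above all young females for Cd74, RT1-Da and RT1-Db1 (7.32% of probes). Between 78 and 21 weeks 6 members were lower in females (9.52% of probes called, 4.65% lower) and 5 in males (34.1%, 21.5% lower), RT1-Da missing in males (-0.54, adjusted p = 0.0708). All old females by label lay below all adult females for those 6 genes (4.65% of probes), whereas no member separated old from adult males (8.76% of probes) or the ages over both sexes (1.7% of probes). The old library labelled male replicate 3, at the level of females by Y-linked genes, had RT1-Ba at -0.17, above adult female replicate 5 (-0.33). The within-sex age counts and separations were not repeated without the 2 libraries whose Y-linked genes went against their labels. The difference between the sexes in the age change was tested itself, and 0 of 8 members passed between 21 and 8 weeks (0.00244% of probes), between 78 and 8 weeks (0% of probes) and between 78 and 21 weeks (0.00244%). Unadjusted, 4 members were under 0.05 between 78 and 8 weeks, RT1-Ba, RT1-Da, RT1-Db1 and RT1-DMa, and none in the other 2 contrasts.

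The second comparison, the one for which the study was designed, asked how females and males of the same age differed. At 8 weeks 0 of 8 members were called in limma (0.0634% of probes), and the differences, female minus male, lay between -0.14 (RT1-DMb) and 0.05 (RT1-Db1). No member had an unadjusted p under 0.05. At 21 weeks 7 members had lower means in females and none was called (0.0317% of probes). The differences were -0.59 for RT1-Ba (two-sided exact permutation p = 0.0238), -0.50 for RT1-Db1 (exact p = 0.0159), -0.46 for RT1-DMa (exact p = 0.0397), -0.41 for RT1-Bb (exact p = 0.0159) and -0.38 for Cd74 (exact p = 0.0397). Those of RT1-Da and RT1-DMb were -0.31 (exact p = 0.0556) and -0.29 (exact p = 0.365). The lowest adjusted p of a main probe in limma was 0.362, and 4 members had an unadjusted p under 0.05. The median of all probes was also lower in females at that age, by 0.23, and under quantile normalization it was -0.02. Without the 3 weakest arrays, male replicates 2, 4 and 5 of that age, this median was 0.06. The exact tests were not repeated without those arrays. Ciita was well above background in 4 adult females and in 0 adult males, of which replicates 2, 4 and 5 were the weakest arrays. Its values were -3.35, -3.56, -2.75 and -3.34 in those 4 females and -3.77, -3.43, -4.19, -4.18 and -3.60 in male replicates 1 to 5. Its mean as measured was -3.43 over all 5 adult females, 1 of them not above background, and -3.84 over the males (limma adjusted p = 0.401).

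At 78 weeks all 8 members had lower means in females and 0 were called, where 0% of probes were. Of all probes, 19712 of 41006 had lower means in females at that age. RT1-Ba differed by -1.07 (exact permutation p = 0.0238), RT1-Da by -0.72 (p = 0.0238), RT1-Db1 by -0.70 (p = 0.0556), RT1-Bb by -0.69 (p = 0.0635) and RT1-DMa by -0.59 (p = 0.0317), and Cd74 by -0.14 (p = 0.365). The adjusted p of limma was 0.935 for every member, and 3 members (RT1-Ba, RT1-Db1 and RT1-DMa) had an unadjusted p under 0.05. Both tests took the hearts as unpaired, although same-numbered hearts of this age deviated together, and paired values are given in the last section. Without the 2 libraries whose Y-linked genes went against their labels, the difference of RT1-Ba was -1.16 (exact p = 0.0857, 4 hearts of each sex) and that of RT1-Da -0.86 (exact p = 0.0857). Those of RT1-Bb, RT1-Db1, RT1-DMa and Cd74 were then -0.79, -0.76, -0.62 and -0.13, and those of RT1-DMb and Ciita -0.32 and -0.46. In limma 0 members were called, neither between the sexes nor in the sex difference of an age change. Between 78 and 21 weeks 6 members were called without these 2 libraries (12287 of all probes), and between 78 and 8 weeks 0 (3544 of all probes). Without female replicate 4 RT1-Ba differed between the sexes by -0.69 and RT1-Da by -0.36 (exact p = 0.0476 for both), RT1-Db1 by -0.45 (exact p = 0.111), RT1-DMa by -0.43 (exact p = 0.0635) and RT1-Bb by -0.33 (exact p = 0.127). The difference of RT1-DMb was -0.26 with this heart and -0.05 without it. In no member and at no age did all hearts of one sex lie above all of the other, as 1.08%, 3.34% and 0.702% of probes did at 8, 21 and 78 weeks. Macrophage markers moved the same way: at 78 weeks 13 of 13 had lower means in females (median -0.41, over all probes 0.01), and at 21 weeks 12 of 13 (median -0.33, over all probes -0.23). T cell markers were lower in 8 of 10 at 78 weeks (median -0.43). Without the 2 libraries these were 13 of 13 (median -0.48) and 7 of 10 (median -0.47). Without female replicate 4 they were 13 of 13 (median -0.30) and 7 of 10 (median -0.09), and the median of the 8 members was -0.35 in place of -0.64. No marker of either list was called. The part of these cells in the differences was not tested.

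The third question was whether the members rose and fell together from heart to heart. To take out age and sex, each value was centred on the mean of its group, and Cd74 was correlated with the other 7 members over 30 hearts with 100000 permutations within groups. Cd74 was correlated with 5 of the 7 after Benjamini-Hochberg adjustment. Pearson's r was 0.68 for RT1-DMa (rho 0.70, adjusted permutation p = 0.00224), 0.57 for RT1-Db1 (rho 0.68), 0.48 for RT1-Da (rho 0.72) and 0.47 for RT1-Ba (rho 0.65), the last 3 with an adjusted permutation p of 0.00413. RT1-Bb had r = 0.44 (rho 0.63, adjusted permutation p = 0.00476). RT1-DMb had r = 0.34 (rho 0.37, adjusted permutation p = 0.0676) and Ciita r = 0.23 (rho 0.22, adjusted permutation p = 0.166), where most Ciita values were not above background. The adjusted permutation p of rho was 0.000595 for RT1-Ba, RT1-Da, RT1-Db1 and RT1-DMa, 0.000868 for RT1-Bb, 0.0581 for RT1-DMb and 0.233 for Ciita. The 2 hearts farthest from the median of Cd74 were adult male 5 and old male 4. Without them r was 0.58 for RT1-DMa, 0.47 for RT1-Db1, 0.39 for RT1-Ba and 0.37 for RT1-Da. It was 0.29 for RT1-Bb (permutation p = 0.0565), 0.42 for RT1-DMb and 0.07 for Ciita. The r of RT1-Bb was thus lower without these hearts, as were those of RT1-DMa, RT1-Db1, RT1-Ba and RT1-Da. The 78-week female replicate 4 was among the hearts kept, and without that heart alone the r of RT1-Bb was 0.78.

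A single heart set much of the spread. Without 78-week female replicate 4 the r of Cd74 was 0.89 with RT1-Da, 0.78 with RT1-Bb and RT1-DMa, 0.75 with RT1-Db1 and 0.69 with RT1-Ba. Within ages, the number of members correlated with Cd74 after adjustment was 2 of 7 at 8, 5 at 21 and 0 at 78 weeks (10 hearts each). The share of all probes correlated with Cd74 within an age was not computed, so these counts have no background beside them. The 75th percentile by which arrays were scaled ranged from 90.0 to 157 at 8, 36.9 to 112 at 21 and 77.4 to 114 at 78 weeks. The r of Cd74 with RT1-Da was 0.85 at 8, 0.98 at 21 and 0.29 at 78 weeks (0.86 without that heart). Between the 4 chains themselves r lay between 0.86 and 0.95 over the 6 pairs, highest for RT1-Bb with RT1-Da, and without that heart between 0.68 and 0.85. Each of the 28 pairs of members was positive over 30 hearts, with a median of 0.58. These pairwise values are a description, since all points share arrays and scaling. RT1-DMb correlated less with the chains than RT1-DMa did, with r of 0.39 to 0.60 against 0.78 to 0.85.

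**Figure D3:**
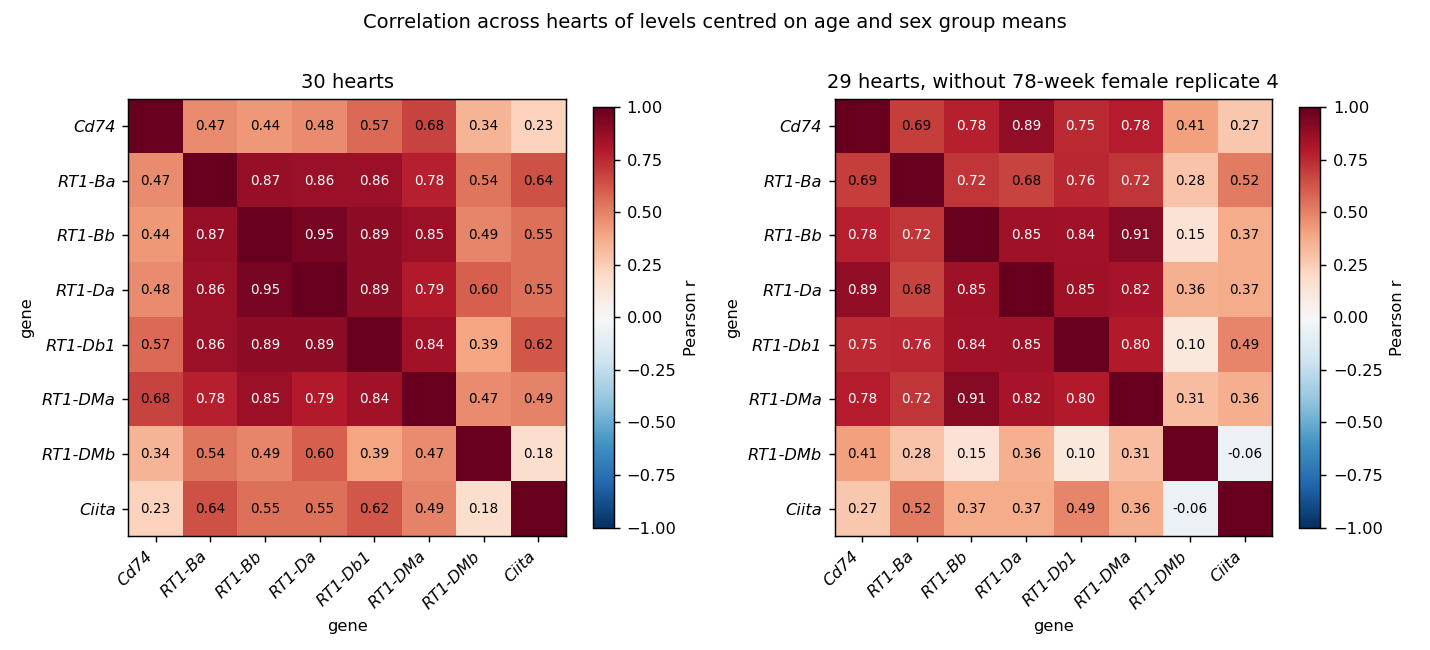
Pearson r between the members across hearts after centring on age and sex groups, over 30 hearts (left) and 29 hearts without 78-week female replicate 4 (right). The block of the 4 chains and RT1-DMa lies between 0.78 and 0.95 at left, and the row of Cd74 is higher at right.

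The correlation with Cd74 has to be read against that of other genes. Of 14106 probes well above background on all arrays, 26.1% had an r over 0.5 with Cd74, and the 6 members among them ranked from 1486 to 5619. The 10 genes most like Cd74 by Pearson r over the 30 hearts were Mrps18a and Mrpl23 (mitochondrial ribosomal proteins), Rpl7a (ribosomal protein), Psmb6 (proteasome subunit), Obfc2b, RGD1564469, RGD1563145 and 3 probes without a gene symbol, with r from 0.90 to 0.93. Cd74 had an r of -0.37 with the array's 75th percentile, by which all values are divided. Under quantile normalization 6.57% of probes had an r over 0.5 with Cd74 and other genes led. For RT1-Da the picture was another: 8.68% of probes had an r over 0.5, the gene most like it was RT1-Bb (0.95), and 6 probes of members were among the 100 most like it. After RT1-Bb came Gzmc (a granzyme, 0.93), MGC105649, Psmb8 (the immunoproteasome subunit in the class II region, 0.93) and Fcgr3a (an Fc receptor, 0.93), with Zap70 (a T cell kinase, 0.92) and Gzma (0.91) also in the first 10. These ranks rest in part on 78-week female replicate 4. Without it 21% of probes had an r over 0.5 with RT1-Da, Cd74 ranked 2nd and RT1-Bb 5th. Against Cd74, 30.1% of probes then had an r over 0.5, and the 6 members ranked from 51 (RT1-Da) to 5214.

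The 78-week female replicate 4 was low for the class II chains and RT1-DM but not for the main Cd74 probe. Against the median of the other 9 old hearts RT1-Ba was lower by 2.13 log2, RT1-Da by 1.95, RT1-Bb by 1.91, RT1-Db1 by 1.38, RT1-DMb by 1.10 and RT1-DMa by 1.02, and each lay below all 9. Cd74 was 6.12 against a median of 6.14, while its opposite-strand probe was lower by 0.37 and below all 9. Second probes gave the same order of size, with RT1-Bb lower by 1.53 and RT1-Db1 by 1.36 and 1.68. Of all probes above background on the other 9 hearts, 25.4% were lowest in this one, so being lowest is not rare there. Its 76 probes more than 2 log2 below every other heart of the age compare with 0 to 37 in the other 29 arrays.

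Other immune genes were low in the same heart. Of the T cell markers above background on all 9 other old hearts, 5 of 5 were lowest there (Cd3d, Cd3g, Cd8a, Cd8b and Zap70, median -1.68), and 9 of 11 macrophage markers (median -0.72). Among the T cell markers that were not detected on all 9, Lck (-1.41) was also lowest. Cd2 (-0.69), Cd4 (-0.56), Cd5 (-0.19) and Cd3e (1.32, above background on 0 of the 9) were not. Class I presentation genes were lowest in 6 of 9, with Psmb8 at -1.56, Psmb9 at -1.31 and Psmb10 at -0.99, the 3 subunits of the immunoproteasome. The interferon gamma targets Cxcl9 (-1.72) and Gbp2 (-1.03) were among 5 of 10 genes of that list. None of the class II promoter factors (0 of 6), endothelial (0 of 6) or cardiomyocyte markers (0 of 6) was lowest there. Outside immune cells 4 of 7 fibroblast markers were lowest there (median -0.50). So were 2 of 4 erythroid genes, Alas2 (-2.13) and Hbb (-1.88), while Hba-a2 (0.25) and Slc4a1 (0.26) were not. Whether the heart held fewer immune cells was not tested.

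**Figure D4:**
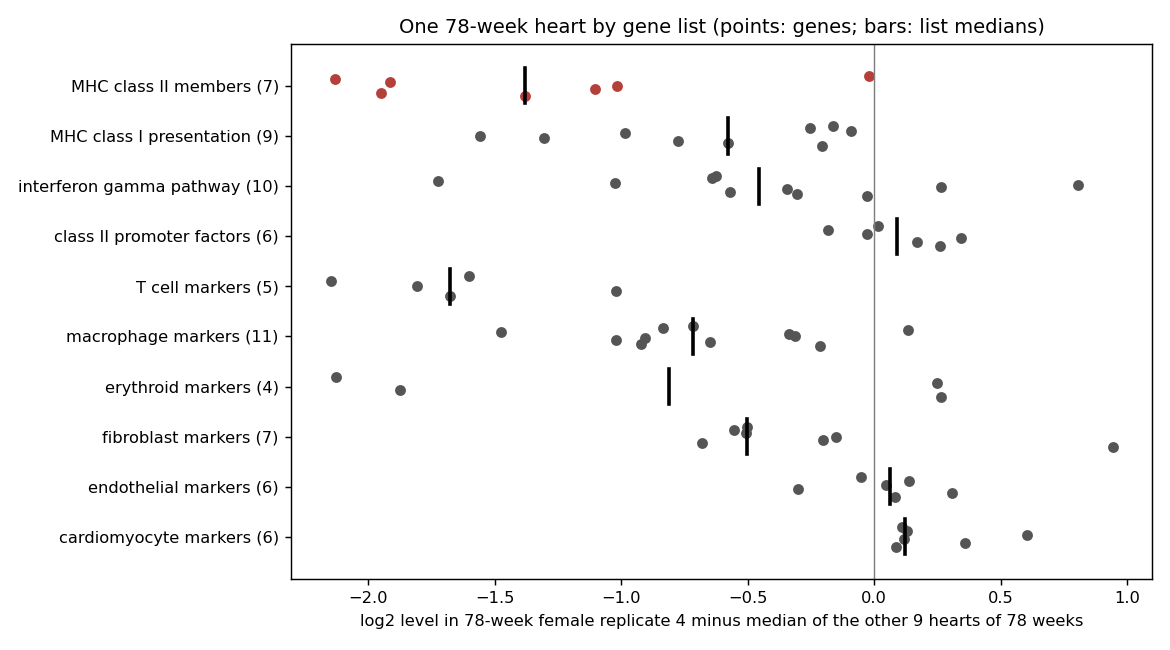
Level of each gene in 78-week female replicate 4 minus the median of the other 9 hearts of that age, on the log2 scale, by gene list, for genes above background on those 9. Points are genes, bars are list medians and numbers in brackets count genes, with 6 of 7 class II members below -1 and Cd74 at -0.02.

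Other genes of the pathway were counted between ages by list, beside 42.1% of all probes called higher at 21 than at 8 weeks and 19.4% called lower at 78 than at 21 weeks. Among the processing and editing partners 4 of 9 were higher at 21 than at 8 weeks, Ctss (the cathepsin that trims the invariant chain, 0.37), Lgmn (asparagine endopeptidase, 0.26), Ctsd (0.19) and Ifi30 (the lysosomal thiol reductase, 0.37), and 2 of 9 were lower at 78 than at 21 weeks, Lgmn (-0.34) and Ctsl1 (-0.23). RT1-DOb, which restrains RT1-DM, was never above background. Of the promoter factors, Rfxank (0.49), Rfxap (0.27), Nfyb (0.30) and Nfyc (0.16) were higher at 21 weeks and Creb1 lower (-1.09), and the same 5 genes were called in the opposite direction between 78 and 21 weeks. Rfxank then fell by 0.54. Of 13 interferon gamma pathway genes 7 were higher and 2 lower at 21 weeks. They included Ifng itself (0.81) and Irf1 (0.62), a transcription factor that acts on Ciita downstream of it. At 78 against 21 weeks 5 were lower and 1 higher, and Irf1 was among those lower (-0.43). The medians of the partners (0.26) and the promoter factors (0.27) between 21 and 8 weeks were close to that of all probes, and that of the 8 members was 0.60.

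Class I presentation genes, which share the interferon response, had 6 of 11 higher and 2 lower at 21 weeks, led by Psmb9 (1.20), Psmb8 (1.09), Psmb10 (0.78) and B2m (0.78). Between 78 and 21 weeks 7 were lower and 2 higher. Psmb8 differed from the members in that it was also higher at 78 than at 8 weeks (0.53, adjusted p = 0.0202). Markers of cells that carry class II were counted in the same way, with 5.66% of all probes called higher at 78 than at 8 weeks. Of 13 macrophage markers 9 were higher and 1 lower at 21 weeks, and 6 were higher at 78 than at 8 weeks (Cd68, Cd163, Mrc1, C1qa, Aif1 and Folr2), where no class II member was. At 78 against 21 weeks 2 macrophage markers were higher (Cd163 by 0.83 and Mrc1 by 0.83) and 2 lower (C1qc and Lyz2). The summed macrophage level lay between 66.1 and 81.0 in young, 82.1 and 158 in adult and 59.5 and 125 in old hearts, in multiples of the array's 75th percentile. T cell markers were higher at 21 weeks in 7 of 10 and lower at 78 than at 21 weeks in 4 of 10. Of the B cell markers 4 of 7, and the dendritic cell markers Ccr7, Cd209a, Xcr1 and Zbtb46 (4 of 9), were not well above background in any heart. Ccr7 (0.53), Xcr1 (0.50) and Zbtb46 (0.49) were nevertheless called higher at 21 than at 8 weeks, so that a call of about that size was also reached by probes without detected signal. The part of cell numbers in the age differences was not tested.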

How the data were processed

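Hearts of 5 female and 5 male untreated F344 rats per age were hybridized, 4 arrays to a slide, and the scans were quantified with Agilent Feature Extraction software. Per the file headers, the deposited scanner files hold signal intensity, background-subtracted by that software. The authors averaged the probes of a gene and divided by the array's 75th percentile, so that their deposited tables hold ratios to that percentile. The rows of those tables were recomputed within 0.002 log2 for 97.7%, 98.2% and 97.8% of rows at 8, 21 and 78 weeks. The columns of 21-week males name the group and not the heart. Authors' fold changes and p-values were not used.

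Levels were log2 of the processed intensity over the array's 75th percentile of the 41012 probes that are not controls. They were tested with limma 3.58.1 in R 4.3.3, with probes not filtered, the sexes within an age over 10 hearts and the ages over 30 hearts with slide as a random block (consensus correlation -0.04). Benjamini-Hochberg adjustment ran over all probes, and a call was an adjusted p below 0.05. A gene was represented by its probe of highest mean signal. Permutation tests were two-sided (scipy 1.17.1), and 5 against 5 hearts cannot give an exact p under 0.0079. The exact p-values between the sexes are given without adjustment over the members. The scripts were tested on simulated data. Array number limits the precision, and nothing in the labels says whether any animals shared a litter. The members and gene lists were chosen with earlier results of these data known. All 8 members are named, with the 10 genes most like Cd74 and the called genes of the pathway lists; the genes named for a single heart were chosen after their values were seen. Some list genes are not reported here by name. Same-numbered females and males of an age shared a slide. They deviated together in every pair at 78 weeks (correlation 0.14 to 0.30), and not at 8 (1 of 5 pairs over 0.1) or 21 weeks (3 of 5). The main limma fits and the exact permutation tests between the sexes did not use pairs. The 78-week pairs entered only the replicate block and the sign-flip test. Alternatives covered background correction, normalization, slide, scan day, replicate block and each heart left out.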

Additional observations from a re-analysis of the deposited data

Results flagged for a closer look

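Of 48 groups of 5 hearts, 5 held a heart whose gap to its nearest neighbour exceeded Dixon's 95% limit for the share of the group's range (a limit that chance passes in about 1 of 20 groups), and all were 78-week females. In replicate 4 RT1-Da (2.29, gap 0.852 of the range), RT1-Bb (1.57, gap 0.793), RT1-Ba (-2.75, gap 0.756) and RT1-Db1 (1.62, gap 0.719) lay far below the other females. Cd74 was lowest in replicate 2 (5.95, gap 0.806), the library whose Y-linked genes lay at the level of males, and the other 4 females lay between 6.12 and 6.16.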

How the results depend on the processing

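The 6 members called between 21 and 8 weeks became 0 under normexp background correction, 0 in females alone and 2 with scan day as a fixed block. The 6 called between 78 and 21 weeks became 0 under normexp, where Cd74 differed by -0.64, RT1-Da by -0.74 and RT1-Db1 by -0.93, and 2 within the second scan day. The 0 called between 78 and 8 weeks became 1 on median signal without background subtraction, 1 within the first scan day and 2 under normexp without 2 arrays. Between 21 and 8 weeks normexp without these 2 arrays gave 7 calls, where 31999 of the 41012 probes were called (28000 higher). Between 78 and 21 weeks it gave 6, where 8070 probes were called (2994 higher). Those arrays (21-week male replicate 2 and 78-week female replicate 1) had Cd74 at 3.85 and 3.29 under normexp, against 5.40 to 6.60 on the other 28. The 5 correlations with Cd74 became 2 within 8 and 0 within 78 weeks, and under normexp the r of Cd74 turned to -0.57 with RT1-DMb and -0.83 with Ciita. Under normexp without the 2 arrays just named, neither of these correlations had an adjusted permutation p below 0.05. Leaving out each heart gave 6 to 6, 6 to 6 and 0 to 0 calls for the ages (21 against 8, 78 against 21, 78 against 8), 0 to 0 for the sexes and their age changes, and 5 to 6 correlations. With the replicate number as a block the calls were 6, 6 and 0 for the ages (23157, 13515 and 4318 of all probes) and 0 for the sexes. The block changed no call at 78 weeks, where the numbers pair the hearts. RT1-Ba was lower in the library labelled female in 5 of 5 of those pairs and RT1-Da in 4 of 5 (exact sign-flip p = 0.0625, the smallest that 5 pairs allow, and 0.125). By Y-linked genes, however, both libraries of replicate 2 lay at the level of males and both of replicate 3 at that of females. RT1-Ba in replicate 2 was -0.88 (labelled female) and -0.87 (labelled male). The sign-flip test was not repeated without these pairs. At 8 and 21 weeks same-numbered hearts correlated from -0.21 to 0.20 and from -0.16 to 0.56. Of 1640 single-gene values 1578 kept their call or their lack of one, 41 lost the call, 19 gained it and 2 reversed. Values called in neither fit counted among the 1578 even where their sign changed. RT1-Da between 78 and 8 weeks, for example, was -0.08 in the main fit and 0.10 without 78-week female replicate 4. Over all probes, 23484 calls between 21 and 8 weeks (17277 higher) became 12545 under quantile normalization (6564 higher) and 1135 under normexp, 13543 between 78 and 21 weeks became 420 under normexp, and 4457 between 78 and 8 weeks became 384 under normexp, 16539 under normexp without 2 arrays and 6994 on median signal. With the first listed probe in place of the brightest, RT1-Db1 differed by 0.50 (adjusted p = 0.0765) between 21 and 8 and by -0.09 (adjusted p = 0.790) between 78 and 21 weeks. The causes were not tested. Signal limits Ciita, which was above background on 9 of 30 arrays.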
